A study of Mus musculus with 8 samples.

Results

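Translation factors are the proteins that start and drive protein synthesis on the ribosome, and the genes described here are the mouse initiation factor genes Eif1 to Eif6 and the elongation factor genes Eef1 and Eef2. Members were chosen by name: the table lists 45706 genes, 71 names begin with Eif1 to Eif6 or with Eef1 or Eef2, and 6 of these carry a pseudogene suffix and were left out. A further 3 did not reach 10 counts in 4 libraries, namely Eif4e1b and Eif2c5, both listed at 0 in every library, and Eif4ebp3, with a highest value of 1.83 counts. The remaining 62 genes are the members, and all 62 were among the 17000 genes tested. The rule uses names and a count minimum, not fold changes, though it was set with earlier results of these data known.

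Initiation begins when eIF2 brings the initiator tRNA to the small ribosomal subunit, with eIF1, eIF1A, eIF3 and eIF5 alongside, while the eIF4 factors bind the mRNA cap and unwind the leader. eIF5B then helps the large subunit join, eEF1A delivers each further tRNA, and eEF2 moves the ribosome along by a codon. Neurons adjust these steps through phosphorylation of eIF2, of eEF2 and of the proteins that hold eIF4E, and several of the factor mRNAs begin with a terminal oligopyrimidine (TOP) tract, a run of C and T through which the kinase mTOR controls their own translation.

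The RNA came from the hypothalamic arcuate nucleus by translating ribosome affinity purification, in which ribosomes with a GFP-tagged RpL10a protein are captured by antibodies. The 4 IP libraries hold RNA of the captured ribosomes and the 4 Input libraries hold RNA of the homogenate, each library from 3 pooled random-fed mice of mixed sexes aged 11 to 12 weeks. All 8 libraries are from mice homozygous for the floxed Mff allele (Mfffl/fl) that also carry AgRP-IRES-Cretg/wt and RpL10a-GFPfl/wt, so that Cre from the Agrp locus both deletes Mff, the mitochondrial fission factor gene, and switches on the tagged ribosomal protein in the same cells. Libraries of the control genotype were not analysed here, so nothing below compares the deletion with its absence. Input also holds RNA of the many cells without Cre, in which Mff is intact. Each replicate is described as its own pool, and p-values weigh differences against the spread between these pools.

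Library totals were 39.9 to 64.8 M estimated counts in IP and 44.1 to 74.6 M in Input (M, mega). Mff itself had 64.0 to 71.2 CPM (counts per M counts of a library, scaled by TMM, the trimmed mean of M-values) in IP and 112 to 132 CPM in Input, and was lower in IP (log2 fold change -0.86 ± 0.07; edgeR's quasi-likelihood test, adjusted p = 3.06e-06). Without the control genotype this does not check the deletion, since cell type differs between the fractions too. All 10 AgRP neuron markers were higher in IP, with summed levels of 3259 to 4953 CPM in IP and 115 to 133 CPM in Input. All 8 astrocyte markers and all 8 oligodendrocyte markers were lower in IP, summing to 789 to 1077 CPM in IP against 2634 to 3282 CPM in Input and to 606 to 884 CPM in IP against 2111 to 2663 CPM in Input. Of 8 microglia markers 7 were lower, at 15.8 to 21.2 CPM in IP and 55.2 to 68.0 CPM in Input, and of 8 vascular markers 3 were lower, at 13.4 to 30.8 CPM in IP and 38.8 to 46.6 CPM in Input. Of 8 pan-neuronal markers 6 were lower and 1 was higher, at 3448 to 4009 CPM in IP and 6831 to 7341 CPM in Input, and no marker of any list was at 0 in a fraction. Ribosomal RNA, mitochondrial and ribosomal protein genes together took 18.3% to 30.6% of counts in IP, lowest in IP replicate 3, and 38.7% to 43.3% in Input. IP therefore compares RNA on ribosomes of Cre-expressing cells with whole-tissue RNA, and cell type and ribosome loading cannot be told apart in it. Nor can fewer cells of a type be told apart from less RNA per cell, and the part of these marker and composition differences in the values of the factor genes was not tested.

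As a group the factor genes were more abundant in IP. Their summed level was 11504 ± 534 CPM in IP and 6735 ± 165 CPM in Input (SD, n = 4 each), a ratio of 1.71, with no overlap between the fractions. They made up 1.19% ± 0.028 of all counts in IP and 0.650% ± 0.030 in Input. By edgeR's quasi-likelihood test with Benjamini-Hochberg adjustment over all genes tested, 33 of the 62 members (53.2%) were higher in IP, where 24.5% of all genes tested were higher. The lower members numbered 3 (4.84%), namely Eif1ax, Eif5b and Eif5a2, where 20.9% of all genes tested were lower. The median log2 fold change, IP over Input, was 0.47 over the members and -0.01 over all genes tested. With upper quartile scaling, which shifts all genes downwards, 19.7% of all genes were higher and 25.8% lower, and 32 members were higher and 6 lower.

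A change of at least 2-fold upwards was called for 10 members, where 8.37% of all genes tested passed this rule. No member was at least 2-fold lower, where 12.3% of all genes tested were, and none was so at an unadjusted p under 0.05 either. With upper quartile scaling 1 member passed that rule. All 4 IP libraries lay above all 4 Input libraries in 33 members, where 24.1% of all genes tested had this order. The opposite order, all 4 IP libraries below, occurred in 4 members, where 24.0% of all genes tested had it. These 4 were the 3 lower members and Eif2b3. The other 26 members did not pass the test, with positive log2 fold changes in 9 and negative ones in 17.

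**Figure D1:**
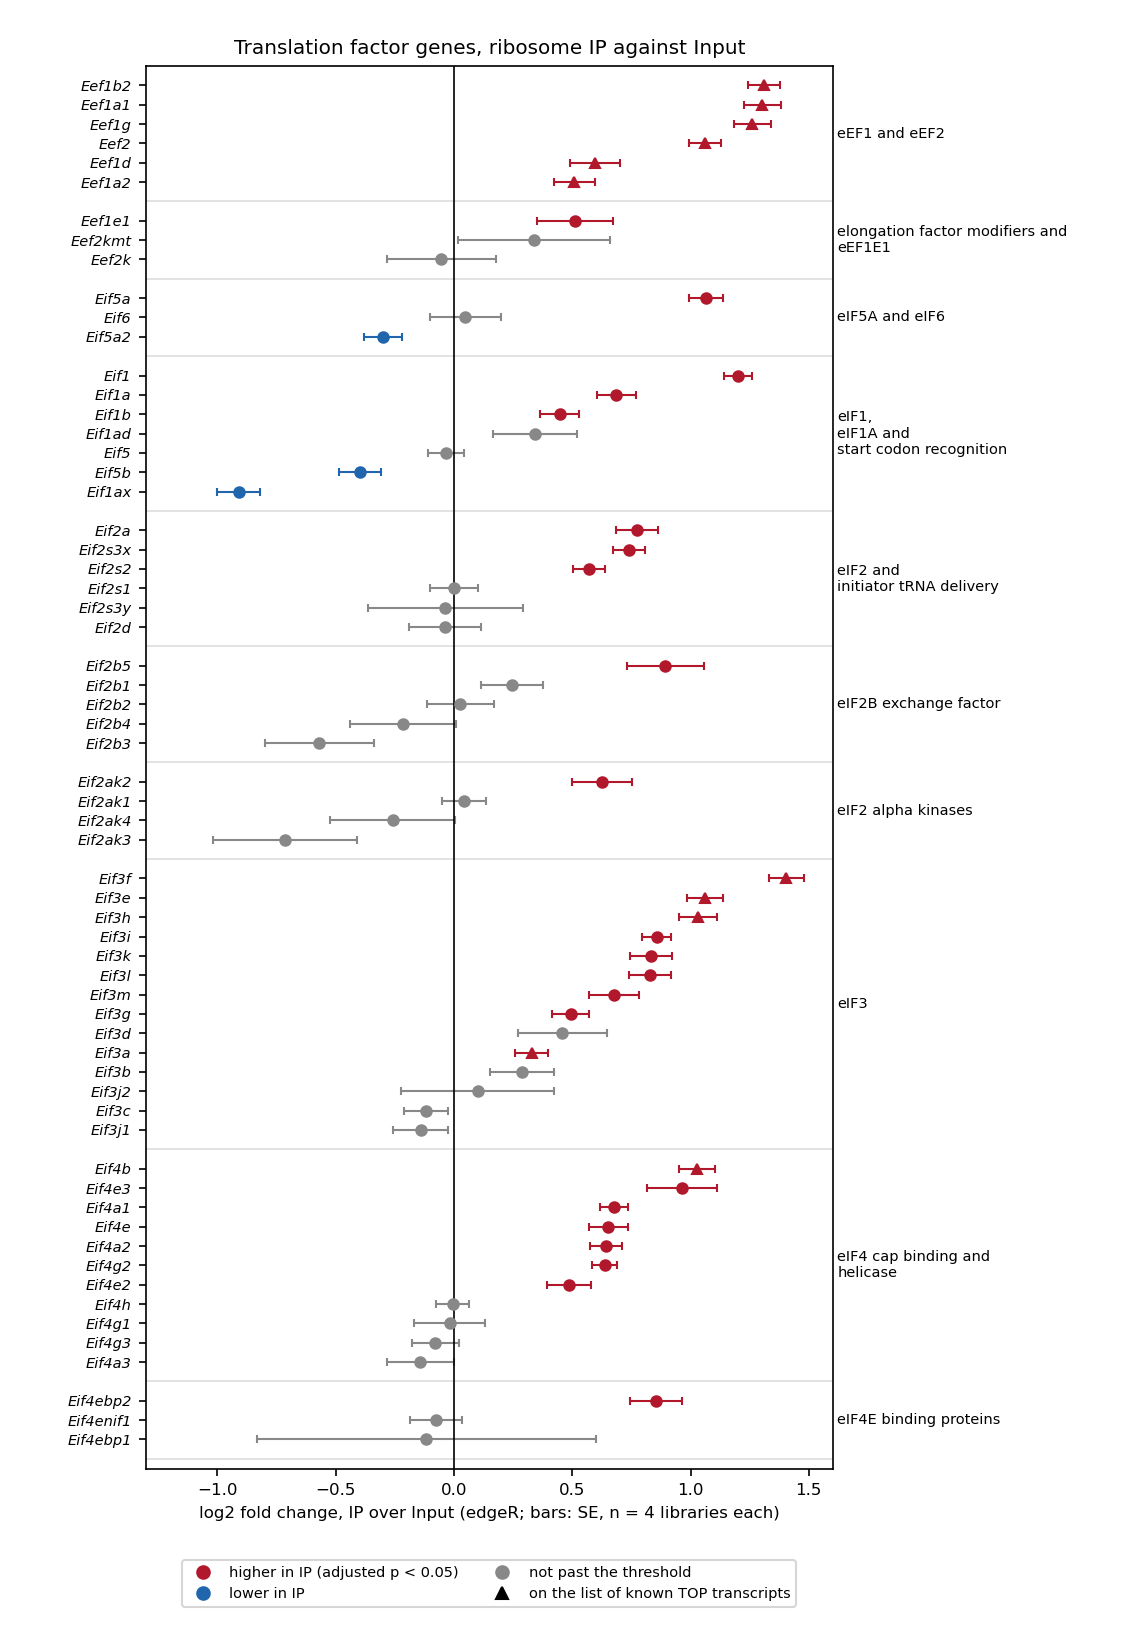
Log2 fold change, IP over Input, of all 62 members with its SE (n = 4 libraries each), grouped by factor complex; red marks higher in IP, blue lower in IP and grey not past the threshold, and triangles mark genes on the list of known TOP transcripts. The 6 genes of eEF1 and eEF2 all lie right of 0, eIF3 and eIF4 split between red and grey, and the 3 blue points are Eif1ax, Eif5b and Eif5a2.

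The elongation factors moved together. All 6 genes of eEF1 and eEF2 were higher in IP, 4 of them at least 2-fold, where 24.5% and 8.37% of all genes tested were. The median log2 fold change of the 6 genes was 1.16. Their summed level was 4742 ± 359 CPM in IP and 2063 ± 105 CPM in Input (SD, n = 4 each), a ratio of 2.30.

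Eef1a1, at chr9:78478449-78489151 on the minus strand (GRCm38), encodes the eEF1A found in most tissues. It had 2460, 2229, 2268 and 2628 CPM in the 4 IP libraries, against 897, 1031, 1048 and 907 CPM in the 4 Input libraries. Every IP library was above every Input library, and the log2 fold change was 1.30 ± 0.08 (SE; edgeR's quasi-likelihood test, adjusted p = 2.08e-07). The mouse genome holds many processed copies of this gene, and Salmon shares out ambiguous reads by an estimate, so its level is uncertain. Eef1b2, which encodes the nucleotide exchange subunit that reloads eEF1A with GTP, lies at chr1:63176825-63180486 on the plus strand. It had 322, 282, 302 and 308 CPM in IP, against 122, 117, 133 and 118 CPM in Input. The fractions did not overlap, and its adjusted p of 8.34e-08, with a log2 fold change of 1.31 ± 0.07, was the smallest of the elongation factors.

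Eef1g, the structural subunit of the exchange complex, averaged 862 ± 75.1 CPM in IP and 360 ± 25.8 CPM in Input, with a log2 fold change of 1.26 ± 0.08. Eef2, the translocase, averaged 966 ± 76.9 CPM in IP and 463 ± 16.6 CPM in Input, with a log2 fold change of 1.06 ± 0.07. Eef1d, a second exchange subunit, showed a smaller difference, 57.6 ± 8.35 CPM in IP and 38.1 ± 2.00 CPM in Input, or 0.60 ± 0.11 on the log2 scale. Eef1a2, at chr2:181147653-181157014 on the minus strand, encodes the eEF1A of mature neurons and muscle. It had 183, 145, 144 and 152 CPM in IP, against 114, 113, 102 and 108 CPM in Input. It was again higher in every IP library, by 0.51 ± 0.09 on the log2 scale (adjusted p = 5.17e-04), the smallest difference of these 6 genes. With offsets for GC content and transcript length, its log2 fold change was 0.32.

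Of the 3 remaining Eef genes 1 was higher in IP, where 24.5% of all genes tested were. Eef1e1, which despite its name encodes a subunit of the tRNA synthetase complex, had 22.8, 23.6, 14.66 and 25.5 CPM in IP, against 15.3, 15.1, 15.5 and 14.73 CPM in Input. IP replicate 3 lay below all 4 Input libraries while the other 3 IP libraries lay above them, and the adjusted p of 0.0232 for a log2 fold change of 0.51 ± 0.16 was near the threshold. That call was lost with upper quartile scaling (adjusted p = 0.0783), with limma-voom (adjusted p = 0.0553) and, among the 8 fits that left out 1 library, without Input replicates 1, 2 and 4 and IP replicates 2 and 4, each alone (adjusted p = 0.0513 to 0.0598). Eef2k, the kinase that inhibits eEF2, had 5.70, 5.09, 9.67 and 9.40 CPM in IP, against 7.86, 7.75, 6.98 and 8.35 CPM in Input, a log2 fold change of -0.05 ± 0.23. Eef2kmt, a methyltransferase of eEF2, averaged 4.71 ± 2.03 CPM in IP and 3.73 ± 0.223 CPM in Input, a log2 fold change of 0.34 ± 0.32. Neither passed the test, and IP libraries spread more than Input libraries in both.

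**Figure D2:**
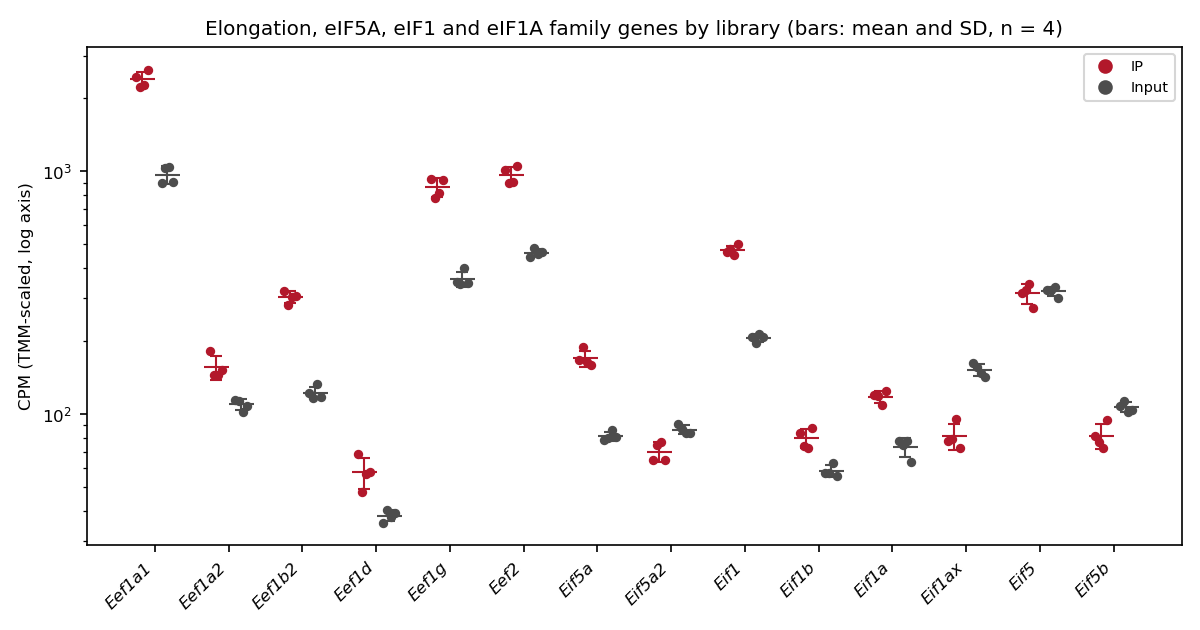
CPM (log axis) of elongation factor, eIF5A, eIF1 and eIF1A family genes in each of 4 IP libraries (red, left) and 4 Input libraries (grey, right), with mean and SD. In the 6 genes of eEF1 and eEF2 and in Eif5a, Eif1, Eif1b and Eif1a all IP points lie above the Input points, in Eif5a2, Eif1ax and Eif5b all lie below, and in Eif5 they overlap.

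Genes whose mRNAs are known from earlier work, mostly in human and mouse cells, to carry a TOP tract are common in this family. A list of 11 such factor genes was used: Eef1a1, Eef1a2, Eef1b2, Eef1d, Eef1g, Eef2, Eif3a, Eif3e, Eif3f, Eif3h and Eif4b. The list holds all 6 genes of eEF1 and eEF2 described above, and it was chosen with earlier results of these data known. All 11 were higher in IP, 8 of them at least 2-fold, where 24.5% and 8.37% of all genes tested were. The median log2 fold change of the 11 was 1.06. Of the 51 members outside that list 22 were higher, with a median of 0.29. With offsets for GC content and length the counts were 11 of 11 (median 0.98) and 19 of 51 (median 0.14). Cytosolic ribosomal protein genes are the largest class of TOP mRNAs. Of those taken by a name pattern, which left out Rpl genes with a single-digit number, 72 of 72 were higher, with a median of 1.73. Their counts are uncertain where processed copies exist. Pabpc1, another known TOP mRNA, named here after its values were seen, had all 4 IP libraries below all 4 Input libraries, with a log2 fold change of -0.24 ± 0.09 that did not pass the test (adjusted p = 0.0523). The difference between listed and unlisted members was not tested.

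The start of the annotated transcript was read for the factor genes to show what lies there, from RefSeq sequences of GRCm38.p6. Of the 62 members 50 had an entry. A run of C followed by at least 4 C or T (searched on the sense strand within 10 bases either side of the annotated start) was present in 16 of the 50 (32.0%), against 32.5% of the 11663 tested genes and 29.9% of all 27025 genes with an entry. The median log2 fold change was 0.32 in the 16 members with the run and 0.45 in the 34 without it. On the TOP list 7 genes had an entry and 2 had the run, Eef1a1 and Eif3f. Below are 30 bases, 15 on either side of the annotated start, of those 2 genes, of 3 listed genes without the run and of Eif1ax, the member with the lowest fold change. Capitals mark the run where it lies within that window, and letters past the window stay in lower case. Runs of C and T that cross the window edges, as in Eif4b, were not counted. Eif3f lies at chr7:108934400-108934429 on the plus strand, Eef1a1 at chr9:78481710-78481739 on the minus strand, Eef2 at chr10:81176616-81176645, Eif4b at chr15:102073758-102073787, Eef1b2 at chr1:63176816-63176845 and Eif1ax at chrX:159372163-159372192, the last 4 on the plus strand.
Eif3f: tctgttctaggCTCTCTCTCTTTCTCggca
Eef1a1: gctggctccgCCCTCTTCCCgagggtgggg
Eef2: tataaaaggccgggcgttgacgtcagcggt
Eif4b: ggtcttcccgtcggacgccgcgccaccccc
Eef1b2: tggacctgcagttccgccggaagtagccga
Eif1ax: gaggaggaggagggcggggagaagccccgc
An annotated start can lie some bases from the start used in a tissue, so the missing run says only that these letters are not in these windows. For the same reason a marked run, as in Eef1a1, was not shown to lie in the mRNA or to be its TOP tract.

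eIF3 is the largest initiation factor, a scaffold on the small subunit. Of its 14 genes 9 were higher and 0 were lower in IP, where 24.5% and 20.9% of all genes tested were. The median log2 fold change was 0.58. With GC and length offsets 7 were higher, with a median of 0.30. At an unadjusted p under 0.05, in DESeq2 and in limma-voom 0 were lower, and with upper quartile scaling 1 was lower, Eif3c. The summed level of the 14 genes was 1565 ± 79.8 CPM in IP and 982 ± 18.4 CPM in Input (SD, n = 4 each), a ratio of 1.59.

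Eif3f, one of the MPN domain subunits, lies at chr7:108934417-108942951 on the plus strand. It had 251, 218, 214 and 236 CPM in IP, against 92.4, 85.2, 88.3 and 81.3 CPM in Input. The fractions were far apart, and its log2 fold change of 1.40 ± 0.07 (adjusted p = 8.01e-08) was the highest of the 62 members; its start sequence, shown above, holds the longest of the runs printed. Eif3e and Eif3h, also on the TOP list, averaged 175 ± 14.5 CPM in IP against 83.8 ± 3.89 CPM in Input and 213 ± 11.1 CPM in IP against 104 ± 10.1 CPM in Input, with log2 fold changes of 1.06 ± 0.08 and 1.03 ± 0.08. Eif3a, which encodes the large scaffold subunit and is the fourth listed one, differed less, at 256 ± 18.7 CPM in IP and 204 ± 8.29 CPM in Input (log2 fold change 0.33 ± 0.07, adjusted p = 2.16e-03). Its value was 0.51 with GC and length offsets and 0.19 with upper quartile scaling.

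Among the 10 unlisted eIF3 genes 5 were higher, with a median of 0.48, against 4 of 4 listed ones with a median of 1.05. Of all genes tested 24.5% were higher. The higher ones were Eif3i (log2 fold change 0.86 ± 0.06), Eif3k (0.83 ± 0.09), Eif3l (0.83 ± 0.09), Eif3m (0.68 ± 0.11) and Eif3g (0.49 ± 0.08), the last an RNA-binding subunit. With GC and length offsets Eif3g turned to -0.03 (adjusted p = 0.738), Eif3k fell below the threshold at 0.20 (adjusted p = 0.0992), and Eif3i and Eif3m were at 0.38 and 0.36. The core subunits Eif3b and Eif3c and the cap-contacting subunit Eif3d did not pass the test. Eif3d had 42.3, 28.9, 20.0 and 28.7 CPM in IP, against 21.6, 24.0, 20.6 and 20.9 CPM in Input. IP replicate 1 was high and IP replicate 3 lay below the Input libraries, for a log2 fold change of 0.46 ± 0.19 (adjusted p = 0.0678). Without IP replicate 3 it passed the threshold, as did Eif3b. Eif3c had 119, 113, 91.0 and 107 CPM in IP, against 123, 123, 103 and 118 CPM in Input. The fractions overlapped, with a log2 fold change of -0.12 ± 0.09 (adjusted p = 0.337).

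The loosely bound subunit eIF3j has a pair of near-identical genes in the mouse, Eif3j1 and Eif3j2, whose counts are uncertain. Eif3j2 had 10.0, 10.2, 25.2 and 26.1 CPM in IP, against 12.5, 14.5, 18.6 and 21.1 CPM in Input. IP replicates 1 and 2 were low and IP replicates 3 and 4 high, on either side of all Input libraries. Eif3j1 averaged 43.8 ± 4.30 CPM in IP and 48.2 ± 6.76 CPM in Input, and neither gene passed the test.

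**Figure D3:**
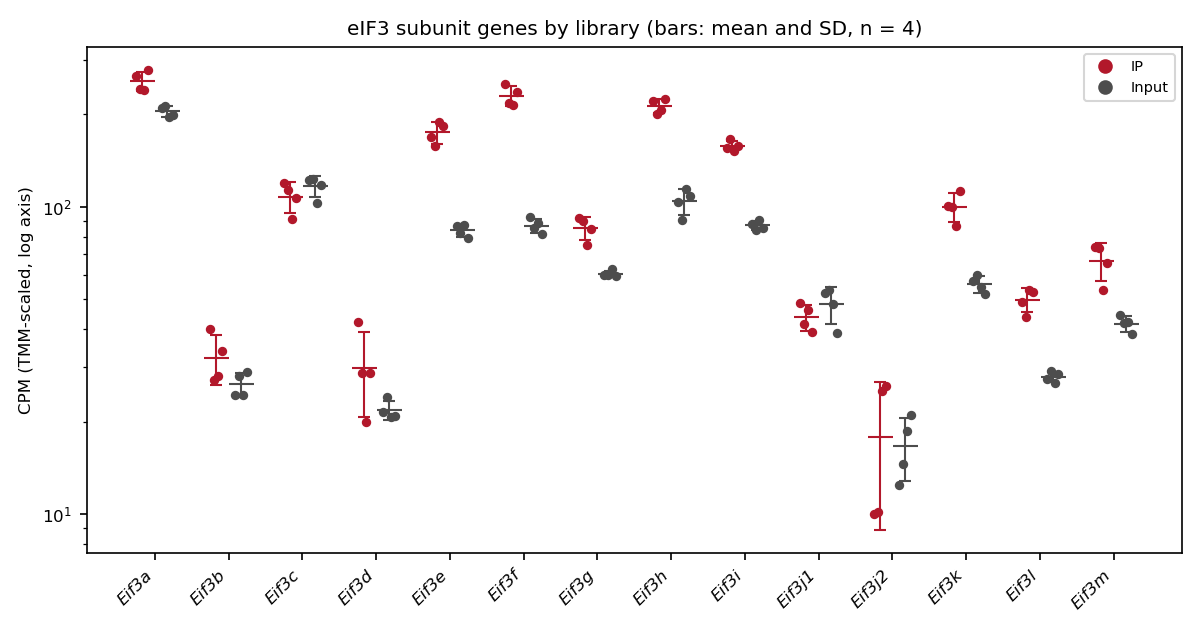
CPM (log axis) of the 14 eIF3 subunit genes in each of 4 IP libraries (red, left) and 4 Input libraries (grey, right), with mean and SD. Eif3f, Eif3e and Eif3h show the widest gap, with all IP points above all Input points, and Eif3b, Eif3c, Eif3d, Eif3j1 and Eif3j2 overlap between fractions.

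The factors that select the start codon moved in both directions. Of 7 genes 3 were higher and 2 lower, where 24.5% and 20.9% of all genes tested were. Eif1, at chr11:100319885-100322096 on the plus strand, encodes the factor that guards start codon choice. It had 466, 477, 453 and 501 CPM in IP, against 207, 196, 214 and 208 CPM in Input. Its levels in IP lay above all Input levels, with a log2 fold change of 1.20 ± 0.06 and the smallest adjusted p of all members (5.64e-08). Its close relative Eif1b had 83.5, 74.01, 72.8 and 87.5 CPM in IP, against 57.3, 57.3, 62.8 and 55.8 CPM in Input. This was also higher in every IP library, by 0.45 ± 0.08 on the log2 scale (adjusted p = 1.06e-03), but with GC and length offsets its log2 fold change turned to -0.10 (adjusted p = 0.303).

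eIF1A, which stabilises the scanning ribosome, is encoded in the mouse by Eif1a and by the X-linked Eif1ax, and these went opposite ways. Eif1a had 119, 119, 108 and 124 CPM in IP, against 77.5, 74.6, 77.3 and 63.2 CPM in Input. Eif1ax, at chrX:159372178-159389928 on the plus strand, had 77.1, 79.0, 95.7 and 72.2 CPM in IP, against 163, 156, 148 and 142 CPM in Input. In Eif1a all IP libraries were above, in Eif1ax all were below, and the log2 fold changes were 0.69 ± 0.08 (adjusted p = 4.19e-05) and -0.91 ± 0.09 (adjusted p = 1.14e-05). The difference between these fold changes was not tested, nor was how reads that could belong to either gene were divided. Eif5b, whose product helps the subunits join, had 81.6, 76.5, 72.1 and 94.1 CPM in IP, against 108, 113, 102 and 104 CPM in Input. It was below Input in every IP library, by -0.40 ± 0.09 on the log2 scale (adjusted p = 3.19e-03), and this call was lost with GC and length offsets (-0.13, adjusted p = 0.317). Eif5, which triggers GTP hydrolysis on eIF2, averaged 314 ± 30.02 CPM in IP and 321 ± 14.0 CPM in Input (log2 fold change -0.03 ± 0.08). Eif1ad, named for its eIF1A-like domain, averaged 18.8 ± 4.87 CPM in IP and 14.9 ± 1.12 CPM in Input (0.34 ± 0.18).

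eIF2 carries the initiator tRNA and has α, β and γ subunits. Of the 6 genes of this class 3 were higher and 0 lower in IP, where 24.5% and 20.9% of all genes tested were. The median log2 fold change was 0.28, and 0 were lower at an unadjusted p under 0.05 or in DESeq2. Eif2s3x, the X-linked gene of the γ subunit, had 281, 249, 255 and 244 CPM in IP, against 149, 162, 158 and 148 CPM in Input. All IP libraries were higher, by 0.74 ± 0.07 on the log2 scale (adjusted p = 4.54e-06). Eif2s2, the β subunit, averaged 112 ± 4.33 CPM in IP and 75.3 ± 4.41 CPM in Input (log2 fold change 0.57 ± 0.07). Eif2s1, the α subunit that the stress kinases phosphorylate, averaged 35.7 ± 4.53 CPM in IP and 35.7 ± 0.982 CPM in Input, a log2 fold change of -0.00 ± 0.10 (adjusted p = 0.994). Eif2s3y, the Y-linked γ gene, had 4.44, 3.35, 6.28 and 3.07 CPM in IP, against 5.99, 5.27, 3.77 and 2.54 CPM in Input, and the fractions overlapped. The pools are of mixed sexes, and how many males each holds is not given in the sources used here. Eif2a and Eif2d encode separate proteins that can also bring tRNA to the ribosome. Eif2a averaged 76.8 ± 8.002 CPM in IP and 44.98 ± 2.13 CPM in Input (log2 fold change 0.77 ± 0.09), and Eif2d had 6.62, 7.17, 7.78 and 7.64 CPM in IP, against 7.59, 7.94, 7.19 and 7.22 CPM in Input, which overlap (-0.04 ± 0.15).

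eIF2B recharges eIF2 with GTP. Of its 5 genes 1 was higher, where 24.5% of all genes tested were, and the median log2 fold change was 0.03. The higher one, Eif2b5, encodes the catalytic ε subunit. It had 41.7, 30.9, 26.6 and 24.4 CPM in IP, against 16.8, 18.3, 15.97 and 15.4 CPM in Input. The levels spread more in IP but stayed above Input, with a log2 fold change of 0.89 ± 0.16 (adjusted p = 8.74e-04). Eif2b1, Eif2b2 and Eif2b4 had log2 fold changes of 0.25 ± 0.13, 0.03 ± 0.14 and -0.22 ± 0.22, and none passed the test. Eif2b3 had 5.18, 4.71, 3.02 and 5.68 CPM in IP, against 7.74, 7.43, 6.24 and 6.10 CPM in Input. All IP libraries were below all Input libraries, yet the log2 fold change of -0.57 ± 0.23 did not pass (adjusted p = 0.0651), and it passed with upper quartile scaling, a 1 CPM filter, DESeq2, limma-voom or without IP replicate 4.

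Of the 4 kinases that phosphorylate eIF2α 1 was higher in IP, a share near the 24.5% of all genes tested, and the median log2 fold change of the 4 was -0.11. Eif2ak2, which encodes the double-stranded RNA sensor PKR, had 19.0, 15.8, 18.6 and 15.3 CPM in IP, against 11.1, 10.8, 11.0 and 11.8 CPM in Input. It was higher in every IP library (log2 fold change 0.63 ± 0.13, adjusted p = 1.88e-03). Eif2ak1, the haem-regulated kinase HRI, was at 43.5 ± 4.41 CPM in IP and 42.2 ± 1.85 CPM in Input. Eif2ak4, the amino acid sensor GCN2, was at 7.05 ± 2.68 CPM in IP and 8.44 ± 1.17 CPM in Input. Eif2ak3, the endoplasmic reticulum stress sensor PERK, had 1.66, 2.99, 2.68 and 4.58 CPM in IP, against 4.95, 5.27, 4.35 and 4.91 CPM in Input. All but 1 of its IP libraries were below Input, its log2 fold change was -0.71 ± 0.31 (adjusted p = 0.0779), and it passed with upper quartile scaling, DESeq2, limma-voom or without IP replicate 4.

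The eIF4 factors assemble on the cap. Of their 11 tested genes 7 were higher and 0 lower in IP, where 24.5% and 20.9% of all genes tested were. The median log2 fold change of the 11 was 0.64. None was lower at an unadjusted p under 0.05 or in DESeq2, and Eif4a3 was lower with GC and length offsets (-0.46, adjusted p = 0.0203). Their summed level was 2998 ± 108 CPM in IP and 2014 ± 38.3 CPM in Input (SD, n = 4 each), a ratio of 1.49. Eif4b, which stimulates the helicase, lies at chr15:102073773-102097173 on the plus strand and is the only eIF4 gene on the TOP list. It had 386, 355, 378 and 347 CPM in IP, against 173, 202, 182 and 163 CPM in Input. Every IP level was above every Input level, by 1.03 ± 0.08 on the log2 scale (adjusted p = 1.03e-06). Eif4h, which resembles Eif4b in the activity of its product, averaged 157 ± 12.98 CPM in IP and 158 ± 2.78 CPM in Input, a log2 fold change of -0.01 ± 0.07.

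Among cap-binding proteins, Eif4e had 149, 145, 166 and 179 CPM in IP, against 111, 97.8, 103 and 95.4 CPM in Input. Eif4e2, a relative that represses translation, had 106, 83.7, 86.1 and 88.1 CPM in IP, against 70.5, 59.8, 66.7 and 62.6 CPM in Input. Both were higher in every IP library, with log2 fold changes of 0.65 ± 0.08 and 0.49 ± 0.09. Eif4e3 was higher too, at 20.98 ± 3.06 CPM in IP and 10.8 ± 1.27 CPM in Input (log2 fold change 0.96 ± 0.15). Eif4a1 and Eif4a2 encode the helicase eIF4A. Eif4a1 had 174, 172, 163 and 166 CPM in IP, against 108, 102, 107 and 105 CPM in Input. Eif4a2, the form abundant in brain, had 960, 847, 947 and 1007 CPM in IP, against 629, 592, 623 and 564 CPM in Input. Both were above Input in all IP libraries, by 0.68 ± 0.06 and 0.64 ± 0.07 on the log2 scale. Eif4a3, a member of the exon junction complex rather than of eIF4F, had 32.5, 31.5, 20.98 and 26.8 CPM in IP, against 32.0, 33.8, 26.7 and 30.8 CPM in Input, and the fractions overlapped.

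Of the 3 scaffold genes 1 was higher in IP, where 24.5% of all genes tested were. Eif4g1 had 94.1, 77.3, 54.5 and 83.8 CPM in IP, against 80.3, 82.8, 65.3 and 85.0 CPM in Input. Eif4g3 had 128, 106, 93.3 and 123 CPM in IP, against 116, 127, 110 and 122 CPM in Input. In both the fractions overlapped, with the lowest value in replicate 3 of each fraction, and the log2 fold changes were -0.02 ± 0.15 and -0.08 ± 0.10. Eif4g2, which encodes DAP5, a scaffold that lacks the eIF4E binding site, averaged 875 ± 18.7 CPM in IP and 563 ± 14.97 CPM in Input (log2 fold change 0.64 ± 0.05, adjusted p = 2.23e-06).

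Of the 3 measured genes for eIF4E binding proteins 1 was higher, where 24.5% of all genes tested were, namely Eif4ebp2, the main 4E-BP of brain. It had 51.8, 59.2, 48.6 and 42.5 CPM in IP, against 25.1, 29.2, 29.2 and 28.4 CPM in Input. The fractions did not overlap (log2 fold change 0.85 ± 0.11, adjusted p = 7.78e-05). Eif4ebp1 was at a low level, with 1.40, 0.151, 1.18 and 0.277 CPM in IP, against 0.819, 0.850, 1.09 and 0.512 CPM in Input. The IP libraries lay on both sides of Input and spread widely, and the log2 fold change of -0.12 ± 0.72 did not pass the test (adjusted p = 0.911). Eif4enif1, which encodes the eIF4E transporter, had 48.4, 38.4, 34.2 and 38.3 CPM in IP, against 41.5, 44.5, 42.7 and 38.9 CPM in Input, and the fractions overlapped.

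eIF5A, the hypusine-bearing factor that helps the ribosome past difficult peptide bonds, has the genes Eif5a and Eif5a2. Eif5a, at chr11:69916714-69921958 on the minus strand, had 166, 189, 163 and 159 CPM in IP, against 78.5, 79.3, 85.9 and 80.2 CPM in Input. Eif5a2, at chr3:28781276-28798846 on the plus strand, had 64.6, 74.9, 76.3 and 64.4 CPM in IP, against 91.2, 86.9, 83.3 and 83.9 CPM in Input. Eif5a was above and Eif5a2 below Input in every IP library. The log2 fold changes were 1.07 ± 0.07 (adjusted p = 5.03e-07) and -0.30 ± 0.08 (adjusted p = 9.64e-03), but that of Eif5a2 was 0.06 with GC and length offsets and, when scaled by library totals, -0.20 (adjusted p = 0.106). Eif6, which keeps the ribosomal subunits apart, averaged 21.8 ± 4.59 CPM in IP and 21.1 ± 0.811 CPM in Input.

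Ratios of related genes within a library do not depend on how libraries are scaled. Effects of transcript length and GC content that differ between fractions can still enter them. The offsets for these were not applied to the ratios, and their part in the differences was not tested. For 6 pairs, the ratio of counts per kb of transcript was taken in every library, and its log2 was compared between fractions by a 2-sided exact permutation test, in which 4 against 4 libraries allow no p below 0.0286. The ratio Eef1a2/Eef1a1 was 0.0639, 0.0560, 0.0548 and 0.0497 in IP, against 0.110, 0.0947, 0.0839 and 0.103 in Input. All IP ratios were lower, by -0.80 on the log2 scale. The ratio Eif5a2/Eif5a was 0.111, 0.113, 0.133 and 0.116 in IP, against 0.332, 0.313, 0.277 and 0.299 in Input. It differed most of the 6, by -1.37 on the log2 scale. The ratio Eif1b/Eif1 was 0.229, 0.198, 0.205 and 0.223 in IP, against 0.354, 0.374, 0.375 and 0.343 in Input, a difference of -0.76. In these 3 pairs no ratio overlapped between fractions, each exact permutation p was the smallest possible, 0.0286, and each became 0.0571 after Benjamini-Hochberg adjustment over 6 pairs, which misses the threshold of 0.05.

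The other 3 ratios overlapped between fractions. Eif4a2/Eif4a1 was 3.65 ± 0.314 in IP and 3.74 ± 0.153 in Input, Eif4g3/Eif4g1 was 1.02 ± 0.114 in IP and 1.06 ± 0.0791 in Input, and Eif4e2/Eif4e was 0.827 ± 0.1403 in IP and 0.919 ± 0.0282 in Input (SD, n = 4 each). Their log2 differences were -0.04, -0.05 and -0.17, with exact permutation p-values of 0.657, 0.571 and 0.229. Eef1a2, Eif5a2 and Eif1b were the less abundant partner per kb in both fractions, and Eif4a2 the more abundant one.

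**Figure D4:**
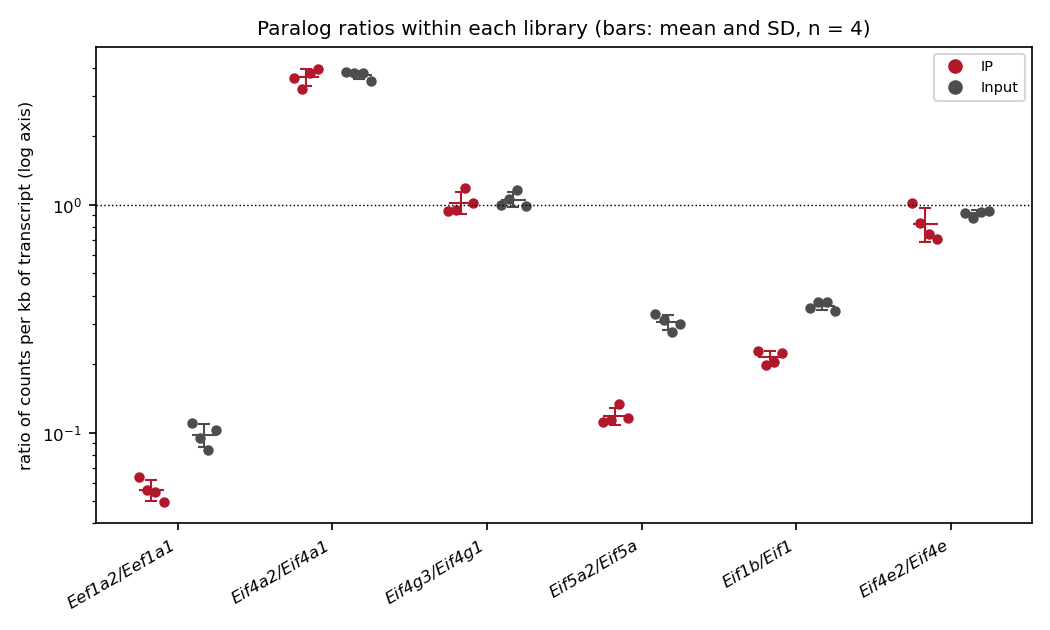
Ratio of counts per kb of transcript (log axis) for 6 pairs of related genes in each of 4 IP libraries (red, left) and 4 Input libraries (grey, right), with mean and SD; the dotted line is a ratio of 1. IP points lie below all Input points for Eef1a2/Eef1a1, Eif5a2/Eif5a and Eif1b/Eif1 and overlap them for the other 3 pairs.

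Between genes, levels were compared as mean CPM per kb of the longest protein-coding transcript. Eef1a1 was first in both fractions, at 1336 CPM per kb in IP and 541 CPM per kb in Input. In IP the next were Eef1g at 463, Eif1 at 359, Eif4a2 at 347 and Eef2 at 313 CPM per kb. In Input they were Eif4a2 at 222, Eef1g at 193, Eif1 at 156 and Eef2 at 150 CPM per kb. Neighbours with overlapping libraries in IP were Eif1 with Eif4a2 and Eif4a2 with Eef2, and in Input Eif4a2 with Eef1g and Eif1 with Eef2. Eif4ebp1 was last, at 0.377 CPM per kb in IP and 0.410 in Input. Across the 62 members, which are not independent and share libraries, the order of levels in IP and Input had a Spearman rho of 0.979. Log2 fold change and transcript length had a rho of -0.45 across members and of -0.24 across the 16901 tested genes with a length. For GC content rho was 0.07 across members and 0.15 across tested genes.

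Partners of these factors were taken from 4 lists. Of 14 genes that act at the poly(A) tail, on eIF4E or beside initiation, 4 were higher and 3 lower in IP, near the 24.5% and 20.9% of all genes tested, with a median log2 fold change of 0.09. Denr, a reinitiation and recycling factor, and Paip2, an inhibitor of poly(A) binding protein, were at 0.64 ± 0.08 and 0.46 ± 0.06 on the log2 scale. Larp4, a poly(A) mRNA binding protein, and Ddx3x, a helicase of structured leaders, were at -0.37 ± 0.07 and -0.34 ± 0.09. Of 11 genes of termination, recycling and ribosome rescue 1 was higher and 3 were lower, where 24.5% and 20.9% of all genes tested were. The higher one was Etf1, the release factor that reads stop codons (0.56 ± 0.09). Among the lower ones were Ltn1, a ubiquitin ligase of stalled ribosomes (-0.81 ± 0.11), and Gspt1, the GTPase partner of that release factor (-0.54 ± 0.11). The median of these 11 was -0.03.

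Of 16 kinases, phosphatase subunits and calmodulin genes that regulate the factors 4 were higher and 5 lower, where 24.5% and 20.9% of all genes tested were, with a median of -0.06. Mtor, the kinase that acts on the 4E-BPs and on TOP mRNAs, had 37.6, 35.5, 47.0 and 37.6 CPM in IP, against 80.7, 90.3, 80.3 and 74.04 CPM in Input. It was lower in every IP library, by -1.04 ± 0.10 on the log2 scale (edgeR's quasi-likelihood test, adjusted p = 9.54e-06). Rptor, of the same list, went the other way. It was higher in every IP library, by 0.63 ± 0.14 on the log2 scale (edgeR's quasi-likelihood test, adjusted p = 3.92e-03). The kinase gene Akt1 (0.45 ± 0.09) and the calmodulin gene Calm2 (0.32 ± 0.06) were also higher. Of the 2 enzymes that make hypusine on eIF5A, Dohh was higher (0.31 ± 0.11, adjusted p = 0.0355) with overlapping libraries, and Dhps, at 0.41 ± 0.18 (adjusted p = 0.0804), did not pass the test.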

How the data were processed

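RNA of 4 IP and 4 Input libraries was analysed, with groups taken from sample titles. The authors deposited gene-level estimated counts without normalization. Salmon 0.14.1 and GRCm38.p6 were used, per the submitters' processing notes. The sources used here give neither the annotation release nor a strand setting, so genes that overlap on opposite strands cannot be separated with certainty.

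Estimated counts were rounded to whole numbers. Genes were kept by filterByExpr (minimum count 10), scaled by TMM factors and compared by the quasi-likelihood test of edgeR 4.0.16 (R 4.3.3) without covariates. P-values were adjusted by the Benjamini-Hochberg method over 17000 genes, with a threshold of 0.05. The SE of a log2 fold change is its size divided by the square root of F. Paralog ratios used counts plus 0.5. Coordinates, transcript lengths and GC content came from GENCODE release M21, which held 98.8% of the table's identifiers. On simulated counts of 16803 genes, 196 of 200 changed genes were recovered with 12 false calls.

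The members, complexes, gene lists and paralog pairs were chosen with earlier results of these data known. Every member may be named. Per-library values are given for the member with the smallest p of each complex and direction, and for members of paralog pairs. List genes are named by the 2 smallest p in each direction. Per-library values of Eif2s3y, Eif3d, Eif3j2, Eif4ebp1, Eif1a, Eif5b and Mtor were added after their values were seen. Rptor was likewise named after its value was seen. Alternatives were DESeq2 1.42.0, limma-voom (limma 3.58.1), other scalings and filters, GC and length offsets (mgcv 1.9.3), a replicate block, and leaving out each library. Same-numbered IP and Input libraries correlated at 0.048 to 0.084 in their deviations from the group means, and differently numbered ones at -0.038 to -0.0016. Values under 0.1 were set as too low for pairing, so numbers were not taken as pairs, though this does not exclude that they are. Pairs of replicates differed by more than sampling noise (chi-square per degree of freedom of 49.8 to 351 in IP and 18.8 to 65.8 in Input), and each library was counted once. No protein sequence is shown. The value of 1 list gene is not reported here, though it stays in the counts.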

Additional observations from a re-analysis of the deposited data

Results flagged for a closer look

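Levels of each member within each fraction were searched for a library far from the other 3, by Dixon's criterion, which chance meets in about 1 of 20 groups. Of the 124 groups 2 met it, 1 in IP and 1 in Input. Eif2b1, a regulatory subunit gene of eIF2B, had 24.3 CPM in IP replicate 1, against 17.9 to 18.4 CPM in the other 3 IP libraries. Eef1g, the structural subunit gene of the eEF1 exchange complex, had 398 CPM in Input replicate 3, against 345 to 350 CPM in the other 3 Input libraries. All 4 IP libraries of Eef1g nevertheless lay above that value.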

How the results depend on the processing

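Between 30 and 35 members were higher in IP under all alternatives, 32 to 35 when 1 library was left out. The lower members numbered 6 with upper quartile factors, 5 with DESeq2, 5 with limma-voom, 2 with library totals and 2 with GC and length offsets, with or without the replicate block, and 3 to 5 when 1 library was left out, the 5 being without IP replicate 4. Those at least 2-fold higher numbered 5 with upper quartile factors, 5 with GC and length offsets and 5 with these offsets plus the replicate block, and 1 member was at least 2-fold lower with upper quartile factors. Scaling moved the median of all genes by -0.13 (upper quartile factors) and 0.10 (library totals), and testing without a filter by -0.25. The members' median exceeded that of all genes by 0.49 in the reported fit and by 0.48 under both scalings, but by 0.29 with GC and length offsets. The cause was not tested.

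With the replicate block 33 members were higher and 3 lower. Each library correlated best with its own number, as a hint from the data and not from the design. The paralog differences under the replicate block were -0.80 (Eef1a2/Eef1a1), -1.37 (Eif5a2/Eif5a) and -0.76 (Eif1b/Eif1), and 4 pairs allow no exact permutation p under the 0.125 that each had. With 1 library left out they were -0.87 to -0.74, -1.43 to -1.33 and -0.79 to -0.72, at the smallest possible exact permutation p of 0.0571. The Eif4a2/Eif4a1 difference ran from -0.076 to 0.021 with 1 library left out.

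For single genes 1177 comparisons with an alternative gave 1074 of unchanged direction and call, and 34 of the 62 genes kept both throughout. Log2 fold changes that turned sign with GC and length offsets were -0.27 for Eif2b2, -0.10 for Eif1b, 0.086 for Eif2s1, 0.076 for Eif5, 0.037 for Eif3j1, -0.30 for Eif6, 0.14 for Eif4g3, 0.13 for Eef2k, 0.091 for Eif4g1, 0.064 for Eif5a2 and -0.035 for Eif3g. With the replicate block added to the offsets they were -0.29, -0.10, 0.078, 0.072, 0.042, -0.32, 0.13, 0.070, 0.070, 0.062 and -0.037 in the same order. With library totals they were 0.022 for Eif4enif1, 0.10 for Eif2s1, 0.071 for Eif5, 0.064 for Eif2d, 0.017 for Eif4g3, 0.048 for Eef2k, 0.095 for Eif4h, 0.078 for Eif4g1 and 0.071 for Eif2s3y. With upper quartile factors they were -0.11 for Eif2b2, -0.085 for Eif6, -0.091 for Eif2ak1 and -0.037 for Eif3j2. DESeq2 gave -0.0077 for Eif2b2 and its size factors in edgeR -0.0072, limma-voom -0.026 for Eif2b2 and 0.0020 for Eif2s1, the replicate block -0.019 for Eif3j2, and totals without ribosomal RNA, mitochondrial and ribosomal protein genes 0.015 for Eif2s1 and 0.011 for Eif4h. With 1 library left out the ranges that crossed 0 were -0.11 to 0.12 for Eif2b2, -0.058 to 0.065 for Eif2s1, -0.078 to 0.032 for Eif5, -0.067 to 0.010 for Eif2d, -0.065 to 0.18 for Eif6, -0.14 to 0.0037 for Eif4g3, -0.59 to 0.23 for Eif4ebp1, -0.20 to 0.095 for Eef2k, -0.042 to 0.038 for Eif4h, -0.13 to 0.30 for Eif3j2, -0.12 to 0.12 for Eif4g1 and -0.28 to 0.16 for Eif2s3y. Of these genes Eif1b, Eif3g and Eif5a2 had been called. With at least 1 CPM required 61 members were tested. Eif4ebp1 was low and spread widely between IP libraries.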

Other observations

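Among the pseudogene names left out by the rule, Eif3s6-ps1 had 11.9, 15.3, 11.8 and 13.1 estimated counts in IP, against 2.13, 1.04, 1.05 and 1.05 in Input. Eif4a-ps4 had 154, 122, 170 and 79.9 estimated counts in IP, against 54.2, 76.2, 59.3 and 50.1 in Input. These values are not scaled to library size, and how reads were divided between copies and their parent genes was not tested.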
